A study of Mus musculus with 6 samples.

Results

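The genes described here build the transport machinery of cilia: the intraflagellar transport trains, their motors, the BBSome and the small GTPases that work with them. They were taken from the gene symbols of the deposited expression matrix: every Ift or Bbs symbol followed by a number, every Dync2 symbol, Wdr19, Wdr34, Wdr35 and Wdr60, Ttc21b, Kif3a, Kif3b, Kif3c, Kifap3, Tulp3, Arl3, Arl6 and Arl13b. This gave 37 of 56980 genes, and Wdr34 and Wdr60 were found under their current symbols Dync2i2 and Dync2i1. All 37 had an average of 1 TPM or more, the minimum for testing (TPM is length-corrected transcript abundance, scaled to the same total in each library), so none was lost to that filter.

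Bulk RNA sequencing was done on whole lung of NSG mice, an immunodeficient strain without mature T, B and natural killer cells, collected 5 weeks after human MDA-MB-231 breast cancer cells were placed in a mammary fat pad. Ctrl hosts (n = 3 libraries) received MDA-MB-231, and DPP3_KO hosts (n = 3 libraries) received the derived line MDA-MB-231/DPP3 KO, which lacks dipeptidyl peptidase 3. Hosts of both groups thus were of the same strain and bore a human tumour at another site, and the deletion was in the tumour cells only. Whether the lungs also held human tumour cells was not examined here, and how human reads were handled was not given. The labels do not say whether the knockout line is 1 clone, nor the age or sex of the hosts, nor that libraries stem from different mice, and p-values therefore cover only the spread among these libraries, which may be technical. The title of the series names the question as the role of tumour exosomal DPP3, and of RAP1 signalling, in metastasis to the lung.

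Intraflagellar transport moves cargo along the axoneme of every cilium, the single primary cilium of most cells as well as the many motile cilia of ciliated airway cells. Trains built of IFT-B and IFT-A complexes are pulled to the tip by kinesin-II and back to the base by dynein-2. The BBSome is an adaptor that carries membrane proteins, among them signalling receptors, out of the cilium, and mutations of its subunits cause Bardet-Biedl syndrome. In whole lung the motile cilia are those of the conducting airways, and in such bulk samples fewer cells of a type and less RNA per cell cannot be told apart.

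Cilium genes are known targets of RFX factors, which bind the X-box, and of FOXJ1, a forkhead factor of motile ciliated cells. The promoter sequences below are shown because they hold the X-box letters among these genes, or belong to a gene that passed a test. The 100 bases before Ift20, which also passed a test, overlap an annotated exon of Tnfaip1 and are not shown. The search covered the 250 bases before each start in the RefSeq promoter table (GRCm38.p6, an earlier build than the GRCm39 of the expression values), on both strands, for GTNNCCNGNAAC, GTNNCCNNGNAAC, GTNNCCNNNGNAAC and GTNNCCNNNNGNAAC, which differ in the number of free bases in the middle, and for the forkhead letters GTAAACA. Of the 37 genes 33 were matched to the table, and Ift80, Ift81, Ift122 and Dync2li1 were not. X-box letters were found before 3 of the 33 (9.09%), Ift22, Ift57 and Bbs7, against 5.04% of all 27025 genes in the table. They were also found before 8 of 23 motile axoneme genes (34.8%) and 5 of 21 transition zone genes (23.8%). For genes of dynein-1 and dynactin, a motor outside cilia, it was 1 of 15 (6.67%), and none of these shares was tested. The forkhead letters were found before 0 of the 33, against 3.54% of all genes. Before Ift22 there were 2 matches in overlapping windows of chromosome 5, chr5:136908063-136908124 and chr5:136908093-136908149, both printed along the + strand, which is that of the gene, with the matched letters in capitals. The first match reads the motif on the - strand, so its capitals show the reverse complement of the pattern, and the second reads it on the + strand:
Ift22, first match: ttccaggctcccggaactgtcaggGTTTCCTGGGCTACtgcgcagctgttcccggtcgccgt
Ift22, second match: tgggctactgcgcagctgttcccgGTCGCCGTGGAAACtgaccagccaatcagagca
No annotated exon of GENCODE M21 overlapped these windows. Before Ift57 (chr16:49699234-49699246, + strand) and Bbs7 (chr3:36613497-36613510, - strand) the match with 24 bases on each side overlapped an annotated exon of the same gene. Only the matched letters are shown, and whether they lie in the exon was not checked:
Ift57: GTTGCCTGGTAAC
Bbs7: GTTGCCTTGGAAAC
Ift57 had another match, on the - strand, at chr16:49699207-49699220. The 100 bases directly before the Bbs5 start (chr2:69647071-69647170, + strand), in which no exon is annotated, held neither motif:
Bbs5: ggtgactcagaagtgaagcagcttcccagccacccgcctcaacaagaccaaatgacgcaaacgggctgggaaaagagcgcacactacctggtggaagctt
A match is a run of letters and not a measured binding site, and no match says only that these letters are absent from the window. Ift22, Ift57 and Bbs7 did not pass the test of a change between the groups on either scale given below.

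Every library has the same TPM sum by construction, so sequencing depth is unknown and a gene's value is its share of all transcripts. The club cell secretory protein gene Scgb1a1 took 7.16% to 10.1% of that sum in Ctrl and 21.7% to 28.7% in DPP3_KO, and the median log2 change over the 15650 tested genes was -0.60 as deposited. Every change is therefore given on 2 scales: the deposited one, and a median-of-ratios scaling that divides each library by a factor (1.19 to 1.36 in Ctrl, 0.700 to 0.909 in DPP3_KO) and brings that median to -0.03. Changes are DPP3_KO minus Ctrl on log2(TPM + 1), which understates those of low genes, tested with limma over all 15650 genes with Benjamini-Hochberg adjustment. The defining genes of lung were present in all libraries: none of the 12 alveolar type 1, 12 alveolar type 2 and 15 capillary marker genes was at 0. The 17 ciliated cell markers summed to 1132 to 1682 TPM in Ctrl and 1550 to 1769 in DPP3_KO, with 10 called higher as deposited and 11 after scaling. The 13 club cell markers summed to 81648 to 114488 TPM in Ctrl and 239412 to 309146 in DPP3_KO, most of it Scgb1a1. Of these 13, 4 were called higher as deposited and 2 after scaling. Heart and skeletal muscle markers summed to 577 to 1199 TPM in Ctrl and 2211 to 2458 in DPP3_KO. Of these 14 genes, 7 were called higher on each scale. Alveolar type 1 markers summed to 3844 to 6644 TPM in Ctrl and 1177 to 2795 in DPP3_KO, and 10 of 12 were called lower as deposited and 3 after scaling. Of the 12 alveolar type 2 markers, 5 were called lower as deposited and 0 after scaling. Capillary markers summed to 3348 to 4446 TPM in Ctrl and 1166 to 2037 in DPP3_KO, with 12 of 15 called lower as deposited and 3 after scaling. Of all tested genes, 34.0% were called lower and 1.38% higher as deposited, and 0.882% and 1.90% after scaling. The part of these shifts in the values below was not tested.

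Only 1 of the 37 transport genes passed on each scale. As deposited, Ift20 fell in DPP3_KO and 0 genes rose, against a background of 34.0% of all tested genes called lower and 1.38% called higher. After median-of-ratios scaling Bbs5 rose and 0 fell, against 1.90% called higher and 0.882% called lower. The median log2 change of the 37 genes was -0.28 as deposited, beside -0.60 for all tested genes, and 0.24 after scaling, beside -0.03. As deposited 28 genes (75.7%) stood below 0 and 9 above, beside 86.2% of all tested genes below 0; after scaling 5 stood below 0 (Kif3b, Ttc21b, Kif3a, Bbs10 and Arl13b) and 32 (86.5%) above, beside 47.7% of all tested genes above 0. At an unadjusted p under 0.05 in the same limma fits, 7 (18.9%) were lower and 0 higher as deposited, where 48.0% of all tested genes were lower and 2.26% higher. After scaling 14 (37.8%) were higher and 0 lower, where 11.5% of all tested genes were higher and 11.6% lower.

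**Figure D1:**
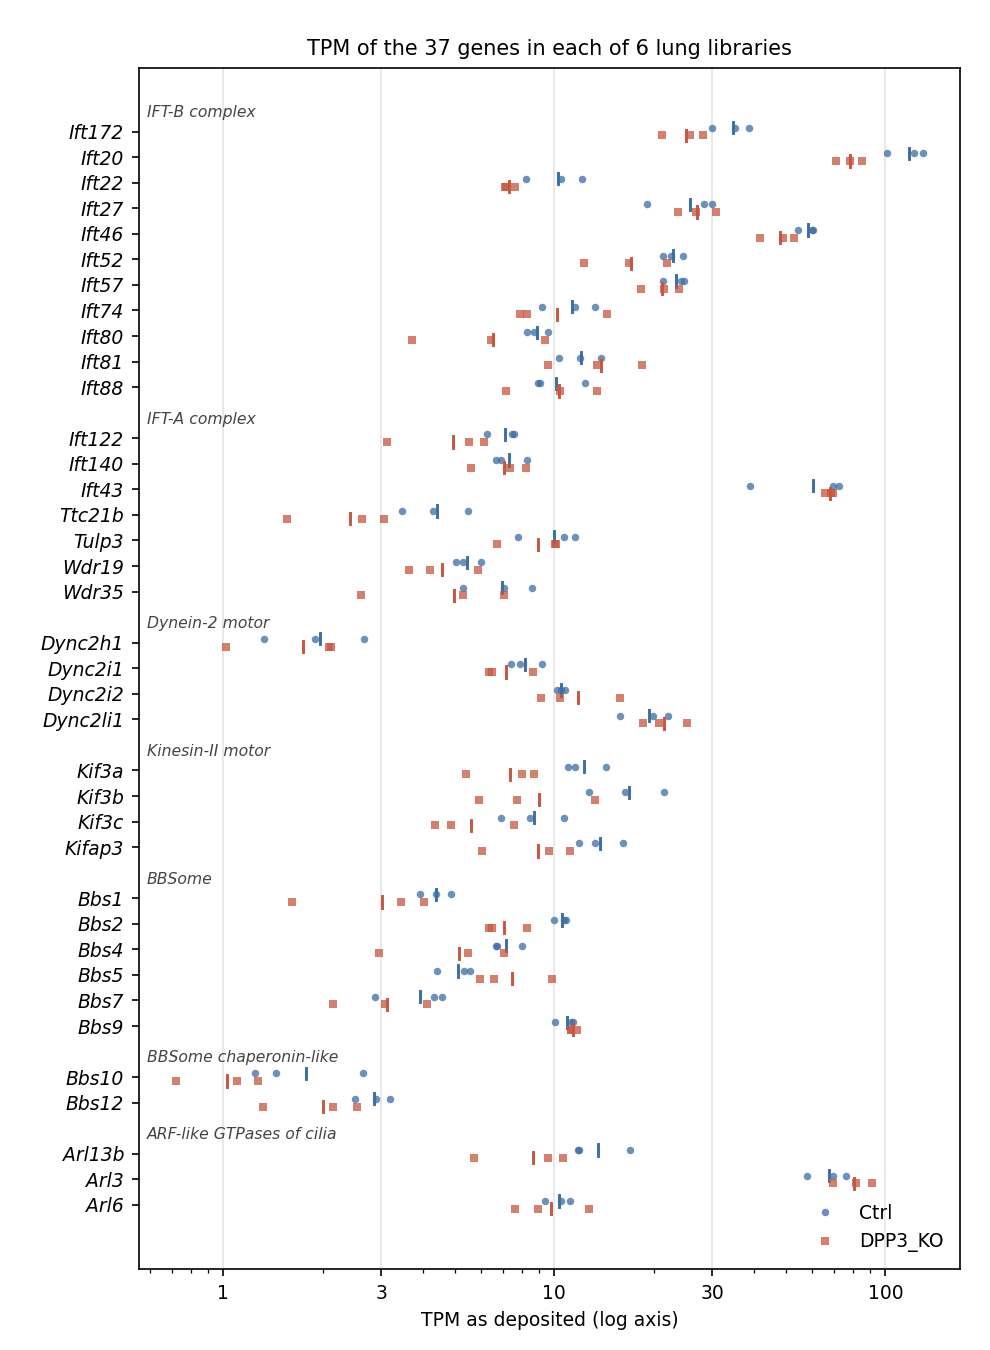
TPM as deposited on a log axis for each of the 37 genes in the 3 Ctrl (circles) and 3 DPP3_KO (squares) libraries, with a short bar at each group mean. The libraries overlap for 26 genes, 10 have every DPP3_KO library below every Ctrl library, and Bbs5 has every DPP3_KO library above.

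The libraries of each group were not equally high. As deposited, Ctrl replicate 2 held the highest of the 6 values for 21 of the 37 genes, and DPP3_KO replicate 3 the lowest for 25. After scaling, DPP3_KO replicate 2 was highest for 16 genes, and Ctrl replicate 3 was lowest for 12 and DPP3_KO replicate 3 for 10. The groups did not overlap for 10 genes lower (27.0%) and 1 higher (2.70%) as deposited, where 51.1% and 2.73% of all tested genes were apart in those directions. After scaling they did not overlap for 16 genes (43.2%), all higher in DPP3_KO, where 14.6% of all tested genes were apart and higher and 15.4% apart and lower.

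IFT-B is the larger train complex, which carries tubulin and other building blocks towards the tip, and 11 of its subunit genes are among the 37. Ift20 (ENSMUSG00000001105), whose protein also sits at the Golgi and helps to sort membrane proteins for the cilium, was the most abundant of all 37 genes. It stood at 129.9, 122 and 101 TPM in Ctrl and 85.1, 78.3 and 71.0 in DPP3_KO, so every DPP3_KO library lay below every Ctrl library. Its log2 change was -0.58 ± 0.17 SE (limma adjusted p = 0.0391), close to the median of all tested genes on that scale, and 0.07 ± 0.17 after scaling (adjusted p = 0.831). Over the alternatives, which include other scalings, its adjusted p ran from 0.017 to 0.873. As deposited it was above 0.05 when any 1 library other than Ctrl replicate 3 was left out.

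Ift81, whose protein binds tubulin together with that of Ift74, had the highest change of the IFT-B genes on both scales. It was at 11.9, 13.8 and 10.4 TPM in Ctrl and 13.5, 18.4 and 9.58 in DPP3_KO, and these values overlap. The log2 change was 0.15 ± 0.26 SE as deposited (limma adjusted p = 0.657) and 0.76 ± 0.18 after scaling (adjusted p = 0.0781), where every DPP3_KO library lay above every Ctrl library. Its partner Ift74 was at 9.21, 11.6 and 13.2 TPM and 8.26, 14.5 and 7.89 TPM, overlapping on both scales. Ift27, the gene of a small GTPase that helps the BBSome leave the cilium, was at 29.98, 28.3 and 19.1 TPM in Ctrl and 23.6, 26.8 and 30.7 in DPP3_KO, with changes of 0.08 and 0.72 on the deposited and scaled values. Ift88, the classical ciliogenesis gene of the Oak Ridge polycystic kidney mouse, was at 8.95, 12.4 and 9.07 TPM and 10.4, 13.4 and 7.14 TPM. Its log2 change was 0.00097 as deposited and 0.60 after scaling (limma adjusted p = 0.129), where the groups did not overlap.

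The other IFT-B genes did not pass on either scale. Ift172, the largest subunit by protein, was at 35.1, 38.9 and 29.9 TPM in Ctrl and 21.2, 28.2 and 25.7 in DPP3_KO, apart and lower as deposited (-0.45, limma adjusted p = 0.0955) and overlapping after scaling (0.18). Ift46 was at 60.3, 60.1 and 54.3 TPM in Ctrl and 41.8, 53.1 and 49.2 in DPP3_KO. It was apart in opposite directions on the 2 scales, lower as deposited (-0.28) and higher after scaling (0.37), and passed on neither. Ift22, Ift52 and Ift80 stood at -0.43, -0.43 and -0.46 as deposited and at 0.16, 0.19 and 0.12 after scaling. Ift57 was at -0.14 as deposited and 0.49 after scaling. All 11 IFT-B genes stood above 0 after scaling, from 0.07 for Ift20 to 0.76 for Ift81, with a median of 0.37.

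IFT-A carries trains back to the base and brings membrane proteins into the cilium, the latter with TULP3, its phosphoinositide-binding adaptor, counted here beside its 6 subunits. None of these 7 genes passed on either scale, and their median log2 change was -0.23 as deposited and 0.32 after scaling. Ift43, the most abundant, was at 72.3, 69.7 and 39.0 TPM in Ctrl and 68.7, 65.6 and 69.6 in DPP3_KO, so Ctrl replicate 3 stood alone at the low end. Its change was 0.22 as deposited (limma adjusted p = 0.504), turned to -0.06 without Ctrl replicate 3, and was 0.87 ± 0.25 SE after scaling (adjusted p = 0.111). Ttc21b, which encodes the subunit IFT139 and has been linked to nephronophthisis, lay at the other end. It was at 4.31, 5.49 and 3.48 TPM in Ctrl and 3.06, 2.63 and 1.56 in DPP3_KO, with every DPP3_KO library lower, a change of -0.68 ± 0.27 SE (limma adjusted p = 0.0828) and of -0.18 after scaling (adjusted p = 0.656).

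The remaining IFT-A genes lay between these. Ift140 was at 6.69, 8.30 and 6.91 TPM in Ctrl and 7.36, 8.24 and 5.59 in DPP3_KO, at -0.05 as deposited and 0.53 after scaling (limma adjusted p = 0.106). Tulp3 was at 10.7, 11.5 and 7.78 TPM and 10.1, 10.0 and 6.71 TPM, at -0.15 and 0.44. Wdr19 and Wdr35, which encode IFT144 and IFT121, stood at -0.23 and -0.47 as deposited and at 0.32 and 0.08 after scaling. Ift122 stood at -0.48 and 0.08. After scaling the groups were apart, higher in DPP3_KO, for Ift140, Ift43, Tulp3 and Wdr19.

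Both motors passed no test, and their medians differed, a difference that was not tested. Kinesin-II is formed by KIF3A with KIF3B or KIF3C and the associated protein KIFAP3, and it also moves cargo outside cilia. Its 4 genes had a median of -0.64 as deposited and -0.04 after scaling, beside -0.60 and -0.03 for all tested genes. Kif3a was at 11, 14.3 and 11.6 TPM in Ctrl and 7.98, 8.70 and 5.41 in DPP3_KO, with all DPP3_KO libraries lower (-0.68 ± 0.23 SE, limma adjusted p = 0.0514). After scaling it was at -0.09 and the groups overlapped. Kif3b, the most abundant of the 4, was at 12.8, 16.3 and 21.4 TPM and 7.71, 13.3 and 5.91 TPM. Its change was the lowest of the 37, at -0.88 ± 0.32 SE as deposited (limma adjusted p = 0.0635; 0.0298 without DPP3_KO replicate 2) and -0.28 after scaling. Kif3c was at 8.45, 10.7 and 6.92 TPM and 7.55, 4.36 and 4.86 TPM (-0.57, and 0.01 after scaling), and Kifap3 at 13.3, 16.1 and 11.9 TPM and 11.2, 9.61 and 6.04 TPM (-0.60, and 0.0045 after scaling).

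Dynein-2 is the retrograde motor, built on the heavy chain DYNC2H1 with the intermediate chains WDR60 and WDR34 and a light intermediate chain. None of its 4 genes passed on either scale; their median was 0.0023 on deposited and 0.56 on scaled values. Dync2li1, the light intermediate chain gene, was at 22.1, 19.9 and 15.8 TPM in Ctrl and 20.8, 25.1 and 18.6 in DPP3_KO, which overlap. After scaling it was at 17.6, 14.7 and 13.3 against 25.7, 27.6 and 26.5, well apart, with a change of 0.78 ± 0.16 SE (limma adjusted p = 0.0544, and 0.0264 to 0.220 over the alternatives). Dync2i2 was at 10.5, 10.8 and 10.2 TPM in Ctrl and 10.4, 15.8 and 9.10 in DPP3_KO (0.12, and 0.72 after scaling, adjusted p = 0.0733). Dync2i1 was at 7.88, 9.21 and 7.42 TPM and 6.50, 8.60 and 6.34 TPM (-0.18, and 0.40 after scaling). The heavy chain gene Dync2h1, the longest of the 37 at 13103 bases, was near the test minimum with 1.33, 2.67 and 1.89 TPM and 2.12, 2.09 and 1.02 TPM, overlapping on both scales.

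**Figure D2:**
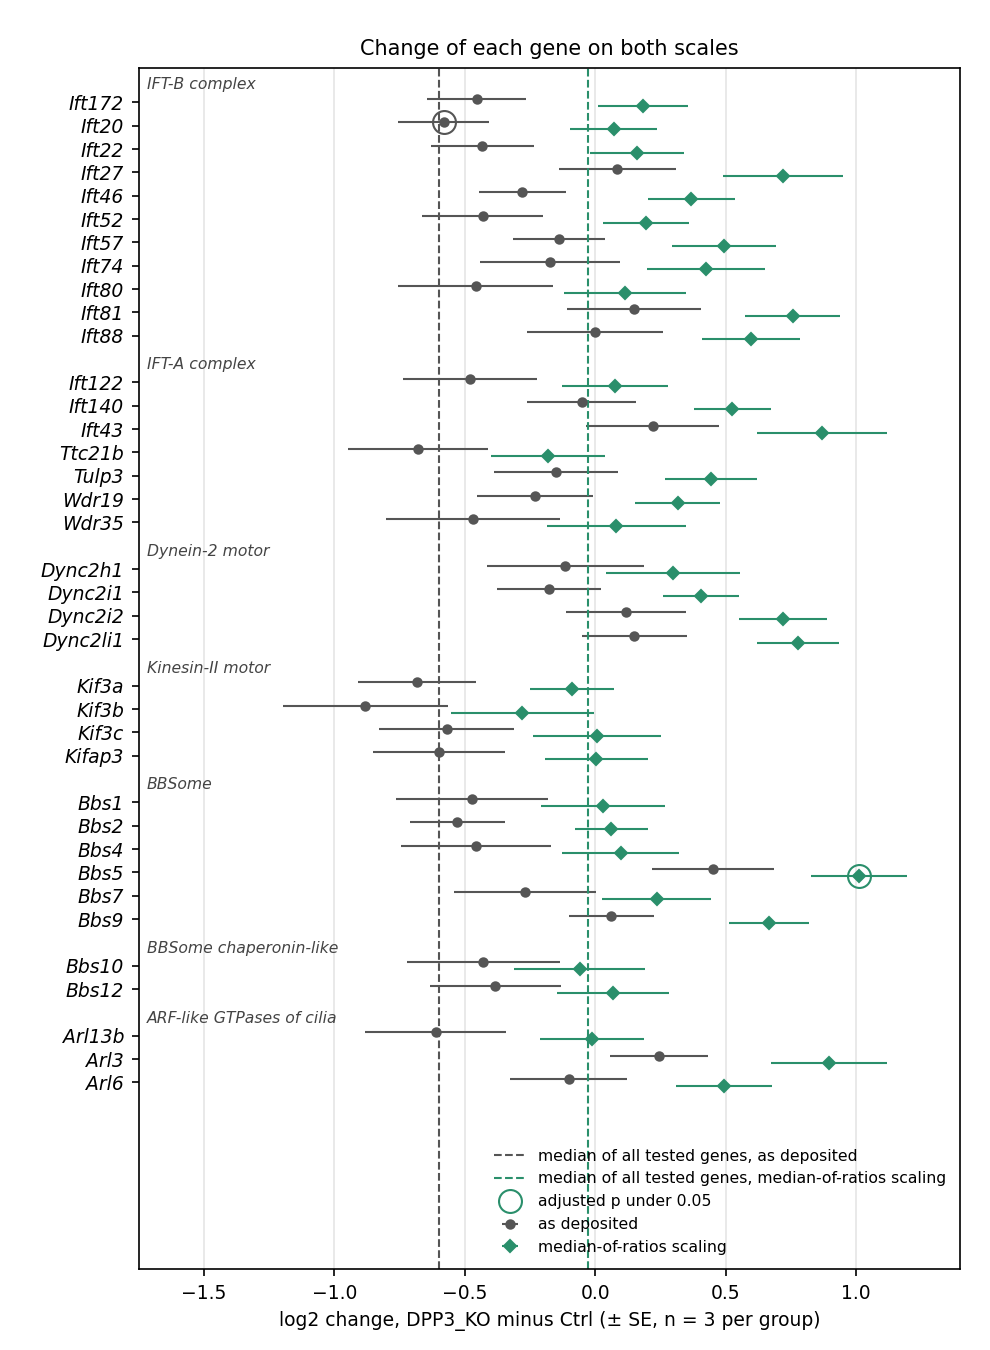
Log2 change of each gene, DPP3_KO minus Ctrl, with its SE (n = 3 per group), as deposited (grey circles) and after median-of-ratios scaling (green diamonds); dashed lines mark the medians of all tested genes at -0.60 and -0.03, and rings mark adjusted p under 0.05. Kinesin-II genes have medians of -0.64 and -0.04 and dynein-2 genes of 0.0023 and 0.56, and the rings are on Ift20 and Bbs5.

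Of the 6 BBSome genes 0 passed as deposited and 1 rose after scaling, with medians of -0.36 and 0.17. Bbs5 (ENSMUSG00000063145), whose protein binds phosphoinositides, was at 5.57, 5.34 and 4.41 TPM in Ctrl and 5.98, 9.86 and 6.59 in DPP3_KO. It was the 1 gene of the 37 with every DPP3_KO library above every Ctrl library as deposited, by a log2 change of 0.45 ± 0.23 SE that did not pass (limma adjusted p = 0.158). After scaling it was at 4.43, 3.94 and 3.71 against 7.40, 10.9 and 9.42, and rose by 1.01 ± 0.18 SE (limma adjusted p = 0.0455). Over the alternatives its adjusted p ran from 0.0192 to 0.172. The call was lost when any 1 library other than DPP3_KO replicate 1 was left out, and with the trend by gene length removed (0.79, adjusted p = 0.0765).

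Bbs9, a structural subunit of the complex, kept nearly the same share of transcripts: 11.2, 11.4 and 10.0 TPM in Ctrl and 11.7, 11.3 and 11.3 in DPP3_KO. Its change was 0.06 ± 0.16 SE as deposited (limma adjusted p = 0.773) and 0.67 ± 0.15 after scaling, where the groups were apart (adjusted p = 0.0719). Bbs2, which forms the top of the complex with the proteins of Bbs7 and Bbs9, was at 10.7, 10.9 and 9.98 TPM in Ctrl and 6.47, 8.26 and 6.37 in DPP3_KO. All DPP3_KO libraries were lower as deposited (-0.53 ± 0.18 SE, adjusted p = 0.0585), and the groups overlapped after scaling (0.06). Bbs1, which contacts ARL6 on the membrane, was at 4.38, 4.87 and 3.94 TPM and 3.44, 4.03 and 1.61 TPM, and Bbs4 at 6.68, 8.0 and 6.70 TPM and 5.49, 7.03 and 2.95 TPM. Both had their lowest value in DPP3_KO replicate 3 and stood at 0.03 and 0.10 after scaling. Bbs7 stood at -0.27 and 0.24.

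Bbs10 and Bbs12 encode chaperonin-like proteins that help to assemble the BBSome, and both were low. Bbs10 was at 1.25, 2.64 and 1.44 TPM in Ctrl and 1.10, 1.27 and 0.72 in DPP3_KO, and Bbs12 at 2.90, 2.50 and 3.19 TPM and 2.14, 2.54 and 1.32 TPM. The groups overlapped for both genes, and the changes of -0.43 and -0.38 as deposited became -0.06 and 0.07 after scaling.

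The 3 ARF-like GTPases differed from each other. Arl3, which releases lipid-modified cargo inside the cilium, was at 69.3, 76.1 and 58.0 TPM in Ctrl and 81.3, 69.3 and 91.1 in DPP3_KO. These overlap as deposited (0.25 ± 0.19 SE, limma adjusted p = 0.316); after scaling they were at 55.2, 56.1 and 48.7 against 100.6, 76.3 and 130.2, a change of 0.90 ± 0.22 SE that did not pass (adjusted p = 0.0844). Arl13b, the ciliary membrane GTPase that activates ARL3, was at 11.8, 16.9 and 11.9 TPM in Ctrl and 9.58, 10.6 and 5.74 in DPP3_KO. Every DPP3_KO library was lower as deposited (-0.61 ± 0.27 SE, adjusted p = 0.107), and the change was -0.01 after scaling. Arl6, which recruits the BBSome to membranes and is itself a Bardet-Biedl gene (BBS3), was at 11.2, 10.5 and 9.38 TPM and 7.61, 12.8 and 8.90 TPM (-0.10, and 0.50 after scaling).

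The log2 changes of these genes differed by gene length. The 9 genes shorter than 2000 bases in the deposited table had a median log2 change of 0.72 after scaling, the 18 of 2000 to 4000 bases 0.18, and the 10 of 4000 bases or more 0.10. All tested genes of the lengths spanned by each class showed the same order, with medians of 0.24, -0.06 and -0.25. With each library's trend by length removed, the 3 classes of transport genes stood at 0.53, 0.18 and 0.25. The median over the 37 was then 0.26, and 0 genes passed. Among the motor genes, Dync2li1 and Dync2i1 of dynein-2 then stood at 0.53 and 0.50, and Kif3b and Kif3c of kinesin-II at -0.06 and 0.26. Ift20, the shortest at 582 bases, stood at 0.07 after scaling, apart from Ift43 (783 bases) and Arl3 (843 bases) at 0.87 and 0.90.

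**Figure D3:**
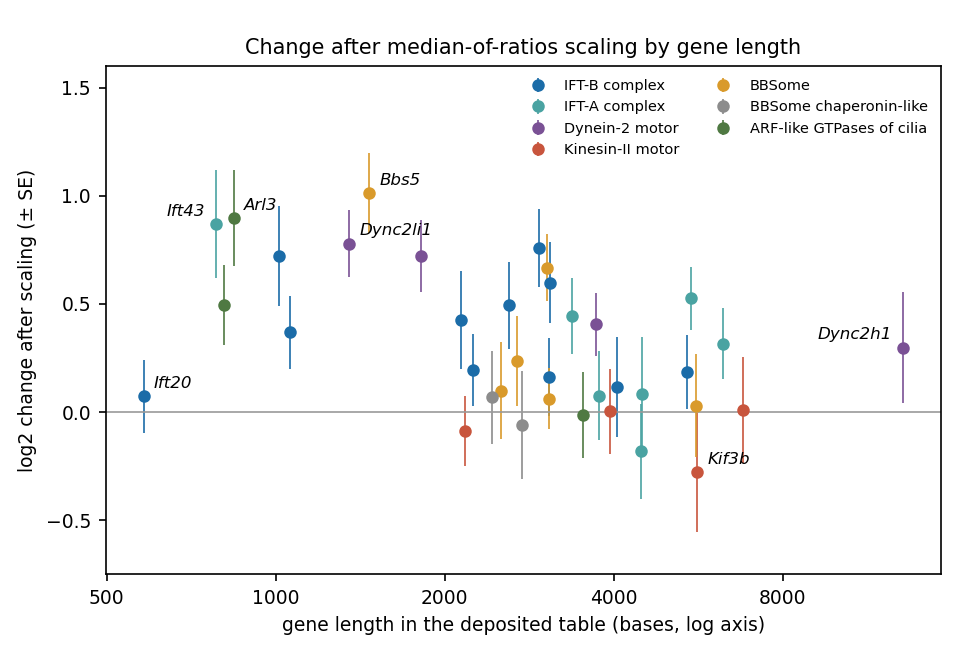
Log2 change after median-of-ratios scaling (± SE, n = 3 per group) against gene length in the deposited table on a log axis, 1 point per gene, coloured by complex. Short genes such as Bbs5, Arl3, Ift43 and Dync2li1 lie highest, at 0.78 to 1.01, with Ift20 near 0 as the shortest of all.

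Lists of related genes were set beside the 37, and their counts of called genes are to be read against the same shares of all tested genes, 34.0% lower and 1.38% higher as deposited and 0.882% and 1.90% after scaling. Without Ctrl replicate 2 none of the genes called as deposited in these lists passed, in a fit that called 85 of all genes lower in place of 5321. The first list held 11 genes counted with the same complexes whose symbols the rule did not match. They were Hspb11, Cluap1, Traf3ip1, Ttc26, Ttc30a1, Ttc30a2, Ttc30b, Ttc8, Bbip1, Mkks and Lztfl1. Of these 11, 1 fell as deposited and 0 after scaling, with medians of -0.11 and 0.34. The gene that fell was Lztfl1, a negative regulator of BBSome entry, from 17.5, 17.8 and 13.3 TPM to 7.67, 11.6 and 7.83 (-0.78 ± 0.23 SE, limma adjusted p = 0.0356; -0.18 after scaling), a call also lost without Ctrl replicate 1, DPP3_KO replicate 1 or DPP3_KO replicate 3. Bbip1, the smallest BBSome subunit gene, was at -0.53 as deposited and 0.11 after scaling and did not pass. The Ttc30 genes are near-identical to each other, and how their shared reads were split is not known, which makes their single values uncertain.

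Among 7 light chain genes of dynein-2, most of which also serve dynein-1, Dynlrb2 stood far from the rest. It rose from 69.6, 112 and 87.1 TPM in Ctrl to 204, 223 and 224 in DPP3_KO (1.29 ± 0.21 SE, limma adjusted p = 0.0148; 1.94 after scaling, adjusted p = 0.0133). Dynlt3 fell as deposited, from 89.3, 91.3 and 60.9 TPM to 42.1, 37.7 and 31.9 (-1.08, adjusted p = 0.0180), and stood at -0.43 after scaling. The Dynlt3 call was also lost without Ctrl replicate 1 or DPP3_KO replicate 3, and the scaled Dynlrb2 call without Ctrl replicate 1, DPP3_KO replicate 2 or DPP3_KO replicate 3. Dynlrb2 is also a marker of ciliated cells, and the other 5 light chain genes did not pass.

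The motile axoneme is the beating apparatus of motile cilia. Of 30 axoneme genes 6 rose and 1 fell as deposited, and 10 rose and 0 fell after scaling. Their medians were 0.36 and 0.89 beside -0.28 and 0.24 for the 37 transport genes. Cfap126, Tekt1, Rsph1, Cfap52, Dnah5 and Hydin of this list are also among the ciliated cell markers counted above, so the counts are not separate. Cfap126, whose protein helps to place basal bodies, rose from 19.5, 30.6 and 27.9 TPM to 65.5, 79.2 and 68.1 (1.43, limma adjusted p = 0.0145), and the tektin gene Tekt1 from 9.36, 13.9 and 11.7 TPM to 21.5, 31.8 and 20.3 (1.00, adjusted p = 0.0230). The 1 axoneme gene that fell was Cfap65 (-0.89, adjusted p = 0.0454; -0.31 after scaling). Leaving out 1 library left 0 to 3 higher as deposited, with 0 without Ctrl replicate 2, and 0 to 5 after scaling, with 0 without DPP3_KO replicate 2.

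The transcription factors listed as possible regulators of cilium genes did not move together. Foxj1, also one of the ciliated cell markers, rose from 18.6, 24.4 and 21.6 TPM to 50.6, 71.2 and 53.3 (1.39 ± 0.20 SE, limma adjusted p = 0.0145). After scaling it rose by 2.03 (limma adjusted p = 0.00959). Rfx2 and Rfx3 are RFX factors of ciliated cells. Rfx2 fell as deposited from 11.4, 12.4 and 11.6 TPM to 7.44, 7.94 and 4.82 (-0.75, adjusted p = 0.0368) and stood at -0.16 after scaling; Rfx3 was at 1.88, 2.41 and 2.61 TPM and 1.85, 2.80 and 1.05 TPM and did not pass (-0.23, and 0.20 after scaling). Rfx1 fell as deposited (-0.72, limma adjusted p = 0.0221) and stood at -0.12 after scaling. Rfx5 (-1.21) and Rfx7 (-0.84), which were added after their values were seen, also fell as deposited. Both are in the list as RFX family genes, and a role in cilia is not taken as given for them. Of the 9 tested genes of this list, Rfx5 and Rfx7 included, 1 rose and 4 fell as deposited, and 1 rose after scaling. With 1 library left out 0 to 4 were lower as deposited, with 0 without Ctrl replicate 1, Ctrl replicate 2 or DPP3_KO replicate 1, whereas Foxj1 passed after scaling in all 6 such fits.

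The transition zone is the gate of the cilium, and the distal appendages tie its base to the membrane. Of 24 transition zone genes 2 (8.33%) fell as deposited and 1 rose after scaling, with medians of -0.26 and 0.31. Tctn1 (-0.95, limma adjusted p = 0.0240) and Nek8 (-0.64, adjusted p = 0.0319) were those that fell, at -0.41 and -0.07 after scaling. The 1 that rose was Tmem107, from 27.7, 26.4 and 30.2 TPM to 44.0, 65.97 and 32.3 as deposited (0.68, adjusted p = 0.0788), by 1.32 after scaling (adjusted p = 0.0316), a call that was lost whichever library was left out. Leaving out 1 library gave 0 to 3 transition zone genes lower as deposited, with 0 without any of Ctrl replicates 1 and 2 and DPP3_KO replicates 1 and 3. Of 19 distal appendage and early ciliogenesis genes 4 (21.1%) fell as deposited (0 to 6 with 1 library left out, 2 without Ctrl replicate 1 or DPP3_KO replicate 3 and 6 without DPP3_KO replicate 2), namely the membrane traffic genes Rab11a (-1.02), Ehd1 (-0.996) and Rab8a (-1.09) and the appendage gene Cep89 (-0.83), and 0 passed after scaling. Of 8 genes of the ARL3 cargo cycle, Unc119b (-0.72) and Arl2bp (-0.74) fell as deposited, with 0 after scaling. Leaving out 1 library gave 0 to 3 lower in that list, with 0 without Ctrl replicate 1, Ctrl replicate 2 or DPP3_KO replicate 3.

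Hedgehog signalling depends on primary cilia in mammals, and of its 16 tested genes 3 (18.8%) fell as deposited and 0 after scaling. Sufu, the gene of the suppressor that holds GLI factors, fell from 11.3, 10.2 and 7.71 TPM to 5.27, 4.96 and 3.88 (-0.91, limma adjusted p = 0.0232), and the ciliary kinesin gene Kif7 by 0.77 on the log2 scale (adjusted p = 0.0391). The third was Evc (-1.09, adjusted p = 0.0442), which encodes a ciliary Hedgehog signalling protein. After scaling Sufu and Kif7 stood at -0.34 and -0.35. The Kif7 call was lost whichever library was left out, and the list's count ran from 0 to 4, with 0 without Ctrl replicate 1, Ctrl replicate 2 or DPP3_KO replicate 3. Gli1, the pathway's target gene, was at 7.42, 5.33 and 2.15 TPM in Ctrl and 3.50, 5.28 and 1.19 in DPP3_KO and did not pass (-0.48, and 0.01 after scaling). The list had medians of -0.59 and -0.10, near those of all tested genes.

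Dynein-1 and kinesin-1 are the cytoplasmic relatives of the ciliary motors. Of 17 dynein-1 and dynactin genes 16 (94.1%) fell as deposited, where 34.0% of all tested genes were called lower, with a median of -0.86, and 0 passed after scaling, with a median of -0.22. The heavy chain gene Dync1h1 fell from 95.3, 105 and 76.4 TPM to 33.7, 31.8 and 33.4 (-1.45 ± 0.18 SE, limma adjusted p = 0.0145). After scaling it was at -0.80 (limma adjusted p = 0.0675). The dynein-2 heavy chain gene Dync2h1 was at -0.11 and 0.30. Its level was near the test minimum, where log2(TPM + 1) understates a change, so the 2 heavy chain genes are not measured alike. Actr1a, the dynactin filament gene, fell by 0.985 as deposited (adjusted p = 0.0148). All 5 tested kinesin-1 genes fell as deposited and 0 passed after scaling, with Klc1 at -1.02, Klc4 at -0.88, Kif5b at -1.07, Klc2 at -0.71 and Klc3 at -0.56, and with medians of -0.88 and -0.25 beside -0.64 and -0.04 for kinesin-II. With 1 library left out, 0 to 15 of the 17 dynein-1 and dynactin genes and 0 to 4 of the 5 kinesin-1 genes were lower as deposited. Both counts were 0 without Ctrl replicate 2, the kinesin-1 count was also 0 without Ctrl replicate 1, and the dynein-1 count was 6 without Ctrl replicate 1 and 7 without DPP3_KO replicate 3. None of these differences between lists was tested.

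**Figure D4:**
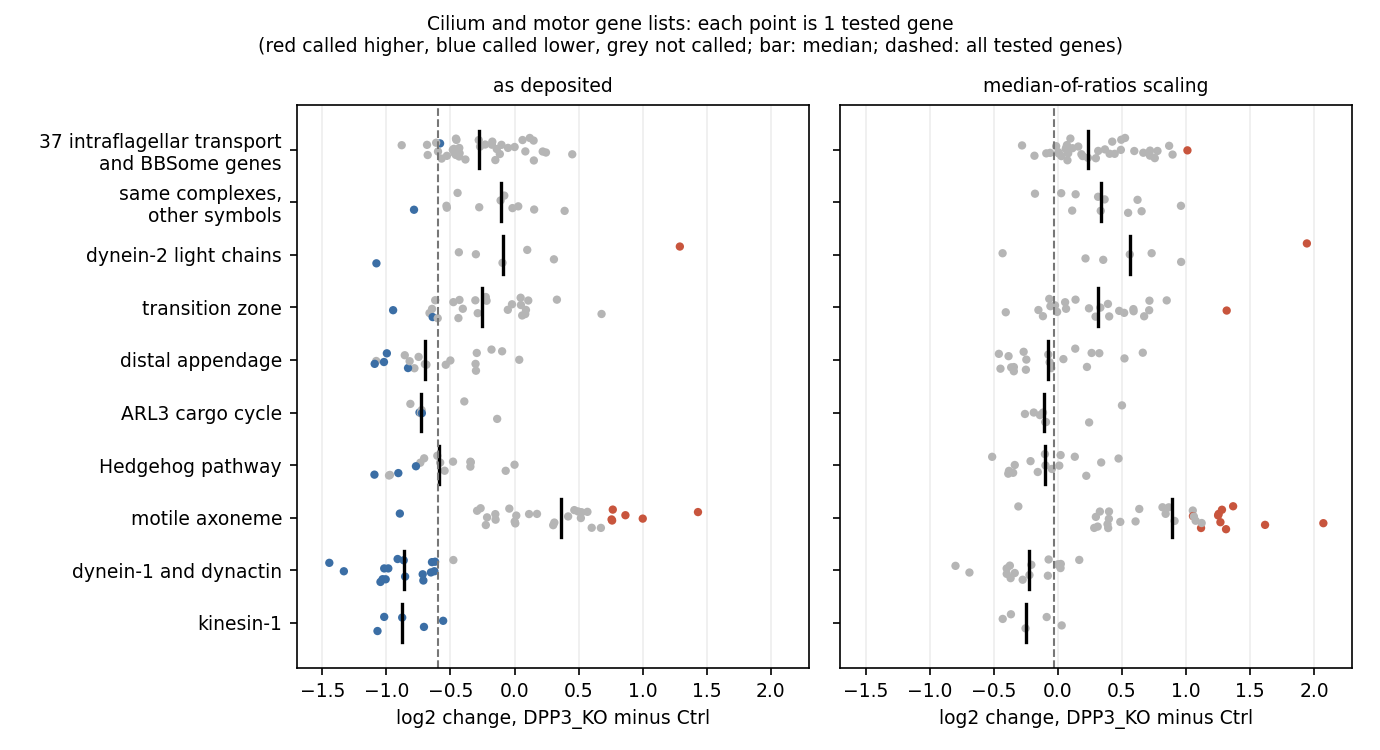
Log2 change of every tested gene in the 37 transport genes and in 9 other cilium and motor lists, as deposited (left) and after median-of-ratios scaling (right), DPP3_KO minus Ctrl; red points were called higher and blue points lower, bars are list medians and dashed lines the medians of all tested genes. The motile axoneme lies farthest right (medians 0.36 and 0.89), the transport genes at -0.28 and 0.24, and dynein-1 with dynactin at -0.86 and -0.22.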

How the data were processed

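Lung RNA from 3 Ctrl and 3 DPP3_KO samples was analysed; groups and replicate numbers come from the titles, and the third Ctrl title, which reads 232 in place of 231, was read as a slip. The authors deposited gene TPM, with gene lengths, in 1 matrix; the submitters' processing notes name HISAT2, StringTie, RSEM and GRCm39, without versions or roles, while annotation release, strandedness and how human reads were handled were not given in the sources used here. Every TPM column matched a sample.

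Genes averaging 1 TPM or more were fitted on log2(TPM + 1) with limma 3.58.1 in R 4.3.3 (intensity trend, two-sided, Benjamini-Hochberg over all tested genes, threshold 0.05), first on the deposited values and then with each library scaled by its median of ratios. The fitting code was checked on simulated data. An exact permutation test of 3 against 3 cannot go below p = 0.1, so none is given. The genes, lists and tests were chosen with earlier results of these data known. By rule, genes given in full passed a fit or had the highest level or the lowest or highest change of their complex, with the 2 smallest p of each pathway list and Foxj1, Rfx2, Rfx3, Scgb1a1 and Gli1; the remaining transport genes, Cfap65, Tmem107, Rfx5, Rfx7, Rab8a, Cep89, Evc, Kif5b, Klc2 and Klc3 were added after their values were seen, and marker lists are given as counts. Alternatives were the pseudocount, the filter, scaling, limma's options, the replicate block, the threshold and each library left out; for the other lists they were applied after their values were seen. Promoters were searched with Python 3.11.15. Protein sequences were not used here.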

Additional observations from a re-analysis of the deposited data

How the results depend on the processing

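As deposited, 216 genes were higher and 5321 lower, of which 0 and 1 were among the 37 transport genes. The 5321 became 3093 without a filter, 138 after median-of-ratios scaling, 140 after quantile normalization and 353 after rescaling without Scgb1a1; the 216 became 353 at a threshold of 0.1, 327 after quantile normalization and 129 without Scgb1a1. The 1 lower transport gene became 0 without a filter, 0 without the intensity trend, 0 with the replicate block, 0 after median-of-ratios scaling, 0 after quantile normalization, 0 without Scgb1a1, 2 at a mean of at least 5 TPM, 7 with sample quality weights and 7 at a threshold of 0.1. The 0 higher became 1 under median-of-ratios scaling and 2 under quantile normalization. Their median of -0.28 became 0.24 under median-of-ratios scaling, 0.25 under quantile normalization and -0.03 without Scgb1a1.

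After median-of-ratios scaling, 297 genes were higher and 138 lower, 1 and 0 of them transport genes. The counts became 84 and 33 without a filter, 723 and 629 with sample quality weights, 25 and 8 with the replicate block, and 724 and 559 at a threshold of 0.1. The 1 transport gene became 0 at a pseudocount of 5, 0 without a filter, 0 with the replicate block, 0 with the length trend removed, 6 with sample quality weights and 6 at a threshold of 0.1, and the median of 0.24 became 0.37 at a mean of at least 5 TPM. Same-numbered libraries' deviations from their group means correlated at 0.27, -0.21 and 0.14, and not every library correlated best with its own number. Such deviations sum to 0 in each group, so these correlations cannot tell whether the numbers pair the libraries.

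Leaving out 1 library gave 6 to 161 genes higher and 85 to 5049 lower as deposited, with 0 to 3 transport genes lower, and 18 to 179 higher and 6 to 174 lower after scaling, with 0 to 1 transport genes higher. Their median ran from -0.43 to -0.16 as deposited and from 0.20 to 0.35 after scaling.

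Of the genes named by rule, some changed sign. From the deposited value to median-of-ratios scaling these were Ift20 (0.07), Bbs2 (0.06), Bbs12 (0.07), Dync2i1 (0.40), Kif3c (0.01), Bbip1 (0.11), Rfx3 (0.20) and Gli1 (0.01), and after quantile normalization Arl13b (0.06), Bbs2 (0.13), Bbs12 (0.08), Bbs10 (0.02), Dync2i1 (0.46), Kif3c (0.05), Bbip1 (0.13), Rfx3 (0.23) and Gli1 (0.05); without Scgb1a1 Dync2i1 stood at 0.10. With 1 library left out, deposited values ran from -0.06 to 0.37 for Ift43, -0.07 to 0.37 for Ift81 and -0.44 to 0.0025 for Rfx3. Scaled values ran from -0.09 to 0.15 for Arl13b, -0.03 to 0.20 for Bbs12, -0.18 to 0.10 for Bbs10, -0.19 to 0.23 for Kif3c, -0.19 to 0.01 for Arl2bp, -0.17 to 0.03 for Nek8 and -0.34 to 0.41 for Gli1. With sample quality weights Kif3c was at -0.15 and Gli1 at -0.03, and with the length trend removed Arl13b was at 0.06, Bbip1 at -0.0024 and Rfx1 at 0.01. The cause of these changes was not tested. TPM keeps no depth, so the precision of low genes such as Bbs10 and Dync2h1 is unknown.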
